A study of Mus musculus with 8 samples.

Results

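The homeobox genes examined here were 41 developmental regulators outside the Hox clusters, of 21938 protein-coding genes scored in all. They comprised 8 Pax, 8 Lhx, 6 Nkx, 5 sine oculis homologs (*Six2* to *Six6*), 6 Dlx, 6 Irx and 2 Msx genes. The list was taken by name and not by a measured value, but with earlier results of these data known. Chromatin accessibility was profiled by ATAC-seq, in which a transposase inserts sequencing adapters into open DNA, in mouse pachytene spermatocytes, the germ cells midway through meiotic prophase I. There were 4 *Arid1a* WT and 4 *Arid1a* cKO libraries, and the accessible regions of each genotype were deposited as 1 peak list. WT males carried *Arid1a* fl/fl or *Arid1a* fl/+ alleles and no Cre. The cKO males were *Arid1a* fl/fl with 1 copy of the *Stra8-Cre* transgene, which is active from spermatogonia onwards and removes floxed exons of *Arid1a*, a subunit gene of the BAF chromatin remodeler. The floxed mice were kept on a CD1 background, and the cells were purified by sedimentation (Sta-Put) and frozen before use. Excision was incomplete, so cKO libraries mixed spermatocytes lacking ARID1A with escapers that kept it. The testes came from multiple adult males, per the methods of the study.

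These genes encode transcription factors that set cell identity in the embryo. Most bind DNA through a homeodomain, LIM proteins (Lhx) add LIM domains for partner binding, and Pax proteins carry a paired domain; *Pax1* and *Pax9* have the paired domain without a homeodomain, so the family name is loose for them. Their starts typically lie in CpG islands, and in many cell types, male germ cells included, such starts are kept silent by Polycomb complexes. An ATAC peak reports accessible DNA and not transcription, and expression was not measured in these libraries.

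The promoters of 3 genes illustrate the situations found: *Nkx6-2* had a promoter peak in both lists, *Lhx1* in the cKO list only, and *Six2* in neither. The sequences (RefSeq, GRCm38.p6, the assembly of mm10) run 5′ to 3′ along the gene from 250 bases before the start to 50 bases after it, with CpG dinucleotides in capitals. They lie at chr7:139582748-139583047, chr11:84525485-84525784 and chr17:85688205-85688504, all on the reverse strand.
Nkx6-2: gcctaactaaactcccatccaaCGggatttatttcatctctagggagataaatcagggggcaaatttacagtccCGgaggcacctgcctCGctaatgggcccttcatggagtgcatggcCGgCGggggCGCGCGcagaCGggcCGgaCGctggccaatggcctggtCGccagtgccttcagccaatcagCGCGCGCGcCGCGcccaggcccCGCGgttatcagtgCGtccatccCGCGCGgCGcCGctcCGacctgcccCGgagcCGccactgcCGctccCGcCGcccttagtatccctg
Lhx1: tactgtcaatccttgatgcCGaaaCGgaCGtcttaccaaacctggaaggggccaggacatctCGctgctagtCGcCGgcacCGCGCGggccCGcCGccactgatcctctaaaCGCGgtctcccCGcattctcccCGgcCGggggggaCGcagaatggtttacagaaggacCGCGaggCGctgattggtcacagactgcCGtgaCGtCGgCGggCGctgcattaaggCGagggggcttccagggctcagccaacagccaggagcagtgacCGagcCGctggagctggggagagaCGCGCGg
Six2: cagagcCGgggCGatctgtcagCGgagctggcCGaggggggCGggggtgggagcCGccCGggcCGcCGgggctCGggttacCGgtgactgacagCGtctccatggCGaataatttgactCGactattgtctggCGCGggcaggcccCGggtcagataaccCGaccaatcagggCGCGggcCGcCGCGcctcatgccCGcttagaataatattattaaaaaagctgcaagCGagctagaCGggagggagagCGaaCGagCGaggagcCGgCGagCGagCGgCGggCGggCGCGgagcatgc
All are dense in CpG. The *Nkx6-2* window held 32 CpG, 0.972 of the number its C and G content predicts, and all 300 of its bases lay under a peak in both lists. The *Lhx1* window held 31 CpG (ratio 0.961) and had 247 bases under a cKO peak and 0 under a WT peak. The *Six2* window held the most, 37 CpG (ratio 1.13), and had no base under a peak of either list.

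The WT list held 19309 peaks and the cKO list 30244, and 43.5% of cKO peaks shared no base with a WT peak, against 4.75% of WT peaks without a cKO partner. The libraries that supplied the peak values also differed in depth, with a background of 4.33 fragments per base in WT and 5.11 in cKO. With 1 list per genotype there is no spread between replicates and no test of a genotype difference. Intervals below are 95% and cover counting error only. *Arid1a* itself had promoter peaks in both lists, and no peak there tested the excised exons. All 12 pachytene marker genes had promoter peaks in both lists, with a fold enrichment over the library background of 4.88 to 15.8 in WT and of up to 25.4 in cKO. Markers of other testis cells had fewer promoter peaks. Peaks in both lists were found at 0 of 6 spermatogonial, 1 of 6 Sertoli (*Amh*), 1 of 6 Leydig (*Star*), 1 of 4 peritubular myoid (*Tagln*) and 0 of 4 macrophage genes. Promoter peaks in the cKO list only were found at *Kit*, *Sohlh1*, *Zbtb16*, *Wt1*, *Cldn11* and *Cd68*, all with a fold of 3.93 or less. These were 3 of 6 spermatogonial, 2 of 6 Sertoli and 1 of 4 macrophage genes, and 0 Leydig or myoid genes. The share of all protein-coding genes was 7.31%. *Gata4* (Sertoli) had a promoter peak in WT only. *Amh* went from a fold of 3.19 over 420 bp in WT to 13.4 over 4830 bp in cKO. Whether neighbouring genes shared that wide cKO peak was not examined. The part of other cells in the results below was not tested. A list also cannot tell apart more cells with an open site from a more open site in each cell.

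Developmental homeobox promoters were mostly without a peak. A promoter window began 1000 bp before an annotated start of the gene and ended 100 bp after it. Of the 41 genes, 11 had a promoter peak in WT (26.8%, Wilson interval 15.7 to 41.9), where 49.7% of all protein-coding genes did. In cKO there were 14 (34.1%, 21.6 to 49.5), against 56.7% of all genes. Promoter peaks in both lists were found at 10 genes (24.4%, 13.8 to 39.3), against 49.4% of all genes: *Pax5*, *Lhx2*, *Lhx8*, *Nkx6-1*, *Nkx6-2*, *Six5*, *Dlx1*, *Irx2*, *Irx5* and *Msx1*. Another 4 genes, *Lhx1*, *Lhx3*, *Lhx4* and *Dlx2*, had one in cKO only (9.76%, 3.86 to 22.5), near the background of 7.31%. The only WT-only promoter peak was at *Pax9*, where 0.269% of all genes had such a peak. The remaining 26 genes (63.4%, 48.1 to 76.4) had no promoter peak in either list, against 43% of all genes. Peaks anywhere in the gene body or the 1000 bp before it were found in 13 genes in WT and 19 in cKO, where the shares of all genes were 55.4% and 63.7%.

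**Figure D1:**
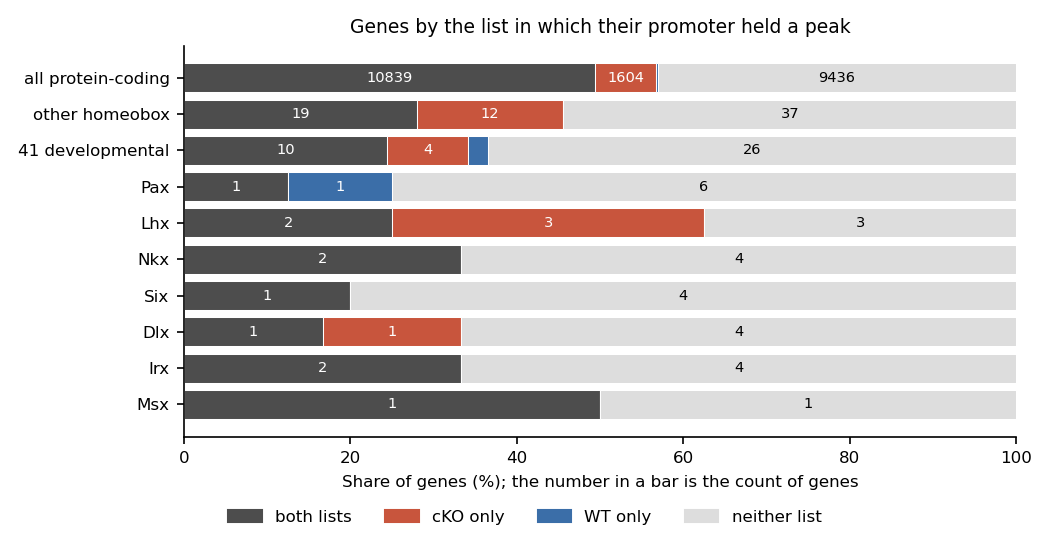
Share of genes (x axis, percent) whose promoter held a peak in both lists, in the cKO list only, in the WT list only or in neither, for all protein-coding genes, 68 other homeobox genes, the 41 developmental homeobox genes and each of their families; the numbers are gene counts. The grey bar of genes without a promoter peak covers 26 of the 41 genes, and the Lhx family holds 3 of the 4 genes with a peak in cKO only.

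Most of these starts were rich in CpG, whether or not they held a peak. The observed over expected CpG ratio of the 1 kb around the gene start had a median of 0.67 in the 41 genes, from 0.0885 at *Lhx4* to 0.981 at *Nkx6-2*, against 0.553 in all protein-coding genes. Among all protein-coding genes without a promoter peak in either list the median ratio was 0.214, and among the 26 developmental genes without one it was 0.662. Of all 10081 protein-coding genes with a ratio of 0.6 or more, 80.8% had a promoter peak in WT (80.0 to 81.6) and 87.1% in cKO (86.4 to 87.8). Of the 35 developmental genes at that ratio, 11 had one in WT (31.4%) and 12 in cKO (34.3%). When only the 5′ end of the gene record counted as a start, a setting applied to these CpG-rich genes after seeing the data, the shares were 6 of 35 in WT (17.1%) and 8 of 35 in cKO (22.9%), against 78.1% and 84.8% of all genes. The CpG-poor starts were *Pax8* (0.222), *Lhx3* (0.294) and *Lhx4* (0.0885), and of these only *Lhx3* had a peak at that start, in cKO. The cKO-only peak of *Lhx4* lay farther in, near an internal start, over sequence with a CpG ratio of 0.683.

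**Figure D2:**
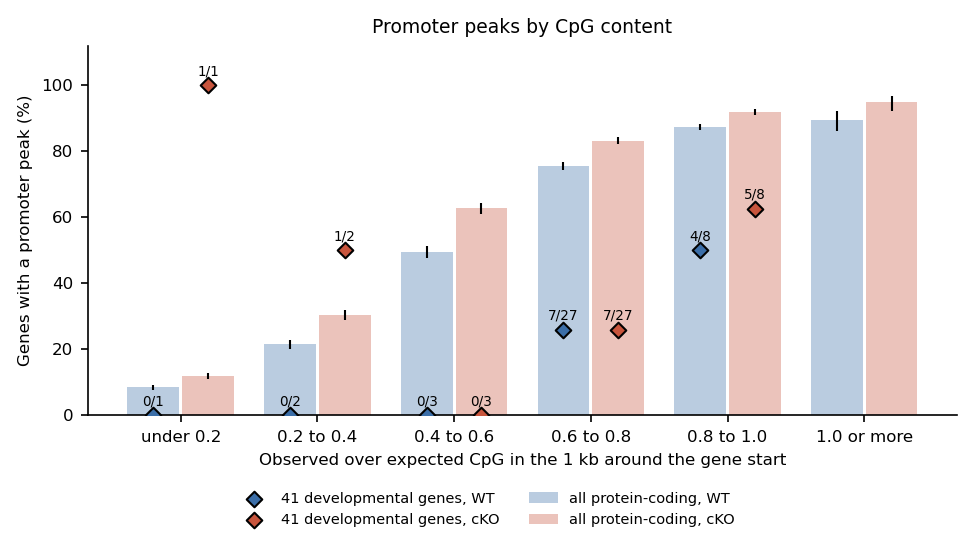
Share of genes with a promoter peak (y axis, percent) by the observed over expected CpG ratio of the 1 kb around the gene start (x axis), for the WT (blue) and cKO (red) lists; bars are all protein-coding genes with 95% Wilson intervals and diamonds the developmental homeobox genes, with their counts. At ratios of 0.6 to 0.8, 7 of 27 developmental genes had a promoter peak in each list, against 75.5% and 83.2% of all genes, and at 0.8 to 1.0 the counts were 4 and 5 of 8, against 87.3% and 91.8%.

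The Iroquois genes held the strongest promoter peak, at *Irx5*, but most of them had no peak. *Irx5*, which functions in heart and retina, had a promoter peak of 2450 bp with a fold enrichment of 21.8 in WT (chr8:92355658-92358107) and of 3110 bp with a fold of 31.9 in cKO (chr8:92355308-92358417). These folds were the highest of the 41 genes in both lists, above those of 98.0% and 96.4% of genes with a promoter peak. The summit pileup was 115 fragments in WT and 194 in cKO. The same peak overlapped a promoter window of the noncoding neighbour *Crnde*, so the opening cannot be assigned to one of the genes. An intronic *Irx5* peak went from a fold of 3.75 to 5.89. *Irx2* had a promoter peak of 2060 bp and fold 6.38 in WT and of 2433 bp and fold 12.4 in cKO. Both peaks also overlapped a promoter window of the noncoding gene *Gm20554*. The *Irx2* ratio of 1.95 between the lists was the highest of the 10 genes. The other 4 Iroquois genes, *Irx1*, *Irx3*, *Irx4* (a ventricular heart factor) and *Irx6*, had no peak in either list. Across the whole 1313688 bp of the *Irx1*-*Irx2*-*Irx4* cluster there were 2 WT and 3 cKO peaks, or 1.52 and 2.28 per Mb, and in the 884432 bp of *Irx3*-*Irx5*-*Irx6* there were 4 and 6, or 4.52 and 6.78 per Mb. The genome-wide densities were 7.08 and 11.1 per Mb.

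Of the 6 listed Nkx genes, *Nkx6-1* and *Nkx6-2* were open and the Nkx2 genes had no promoter peak. Among the comparison genes outside the list, *Nkx6-3*, *Nkx2-6* and *Nkx2-9* had no promoter peak and *Nkx2-4* had one in cKO only. *Nkx6-2*, which patterns the ventral neural tube, had a promoter peak of 4303 bp in WT and 5493 bp in cKO, so that peaks covered 68.2% and 91.7% of its gene interval. The fold enrichment was 11.6 in WT and 16.5 in cKO. A gained exonic peak of 416 bp (fold 3.11) lay at the 3′ end of the gene, where it also overlapped the end of the convergent neighbour *Inpp5a*. *Nkx6-1*, a factor of pancreatic beta cells and motor neurons, went from a fold of 7.13 over 1184 bp to 11.9 over 1923 bp. Among the Nkx2 genes, *Nkx2-5*, the cardiac regulator, had 1 gained exonic peak of 376 bp (fold 3.76) and none at its starts. *Nkx2-1* (thyroid and lung), *Nkx2-2* (ventral neural tube) and *Nkx2-3* (gut and spleen) had no peak in either list.

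The surroundings of *Nkx6-2* stood out once the values were seen. Within 100 kb of its start there were 3 WT peaks and 26 cKO peaks, 22 of them without a WT partner, and the 22 had a median fold of 3.35. Only 0.0273% of protein-coding genes had at least as many gained peaks within 100 kb, and the median gene had 1. Of the gained peaks, 10 lay in the neighbouring gene *Cfap46*, named after its cilia and flagella associated protein, whose promoter had a peak in both lists. The next highest counts among the developmental genes were 10 gained peaks around *Six5*, a number reached by 3.20% of genes, and 9 around *Msx2* (4.29%), which itself had no peak. At the other end, *Pax1*, *Pax3*, *Pax6*, *Pax8*, *Nkx2-1* and *Nkx2-2* had no peak of either list within 100 kb. These were 6 of 41 genes, and the share of all genes was 14.0%.

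In the Lhx family 4 of 8 genes had a gained peak (50%, 21.5 to 78.5), where the share of all protein-coding genes was 23.6%. *Lhx1*, needed for head and kidney formation, had a gained peak of 423 bp astride its start (fold 5.07, pileup 30). This peak also overlapped a promoter window of the antisense gene *Lhx1os*. *Lhx3* and *Lhx4*, which act together in pituitary and motor neuron development, each had a gained promoter peak. The *Lhx3* peak was 633 bp wide at the gene start (fold 4.58), and the *Lhx4* peak 447 bp wide (fold 4.25) near an internal start 9657 bp into the gene. All lay on 3 rows of the cKO list, the number that overlap with each of the other 3 libraries gives. *Lhx2*, a regulator of eye and forebrain, had a small promoter peak at internal starts in both lists (fold 3.75 over 398 bp in WT, 4.25 over 881 bp in cKO). It also had a gained exonic peak of 1043 bp near the 3′ end of the gene, with a fold of 7.69, the highest of the 10 gained peaks in the 41 genes. *Lhx8*, known in basal forebrain neurons and oocytes, went from a fold of 4.69 over 457 bp to 6.22 over 862 bp at internal starts. *Lhx5* and *Lhx6*, forebrain regulators, had peaks inside the gene only, with folds of 4.13 and 4.91 for *Lhx5* and of 4.69 and 7.36 for *Lhx6* in WT and cKO, respectively. *Lhx9*, required for formation of the gonad, had no peak in either list.

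Among the Pax genes only *Pax5*, the factor of B cell commitment, had promoter peaks in both lists. They lay near an internal start 6481 bp into the gene, with a fold of 12.8 over 1323 bp in WT and of 22.1 over 1459 bp in cKO. The annotated 5′ end of *Pax5* itself had no peak. Inside its introns, peaks shared by the lists went from a fold of 5.25 to 6.38 and from 3.38 to 8.02. Gained peaks of 387 bp (fold 2.78) and 3009 bp (fold 4.42) lay next to the latter. That shared peak overlapped a promoter window of *Gm12462* in both lists, and the 3009 bp peak overlapped one of *4930517J16Rik*. *Pax9*, which acts in teeth and pharyngeal pouches, had the only peak in WT without a cKO partner, chr12:56695765-56695974. It was 210 bp wide with a fold of 3.56 and a pileup of 18, lay on 1 row, and ran from the 5′ UTR of the first coding exon into the following intron. A shared *Pax9* peak farther into the gene had folds of 4.69 in WT and 5.07 in cKO. *Pax2*, a kidney and ear regulator, had a gained peak of 1480 bp and fold 3.93 in its last exon. That peak also overlapped a promoter window of *1700039E22Rik*. No peak of either list was found at *Pax1* (vertebrae), *Pax3* (neural crest and muscle), *Pax6* (eye), *Pax7* (muscle stem cells) or *Pax8* (thyroid).

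**Figure D3:**
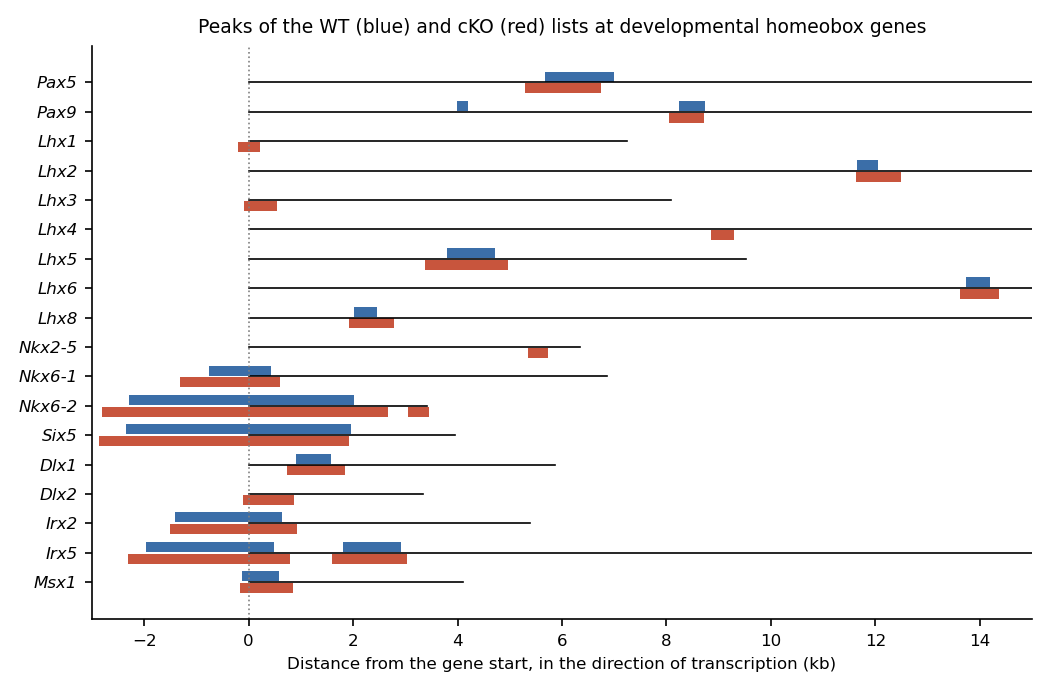
Peaks of the WT (blue) and cKO (red) lists along 18 developmental homeobox genes, by distance from the gene start in the direction of transcription (x axis, kb); the black line is the gene, and peaks beyond 15 kb, including gained peaks of Pax2, Pax5 and Lhx2, are outside the plot. Peaks of Nkx6-2, Six5, Irx2 and Irx5 are wide and centred near the start, while those of Pax5, Lhx2, Lhx8 and Dlx1 lie at internal starts.

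The paired Dlx genes of forebrain and jaw were open at 1 of 3 clusters. *Dlx1* had a promoter peak near an internal start 988 bp into the gene. The fold was 4.31 over 669 bp in WT and 4.58 over 1110 bp in cKO. The wider cKO peak also overlapped a promoter window of the antisense gene *Dlx1as*. *Dlx2*, the partner of *Dlx1*, had a gained promoter peak of 974 bp with a fold of 4.58 and a pileup of 27. The *Dlx3*-*Dlx4* and *Dlx5*-*Dlx6* pairs, known in skin, jaw and limb, had no peak in either list, genes and intergenic sequence included. Of the sine oculis homologs, *Six5*, which neighbours the myotonic dystrophy gene *Dmpk*, had a peak of 4301 bp and fold 6.75 in WT. In cKO the *Six5* peak was 4798 bp wide with a fold of 8.18. Both peaks also overlapped a promoter window of *Dmpk*. *Six2* (nephron progenitors), *Six3* and *Six6* (eye and forebrain) and *Six4* (muscle) had no peak, and neither did the 76667 bp from *Six2* to *Six3*. *Msx1*, a tooth and limb regulator, went from a fold of 4.69 over 712 bp to 5.89 over 1008 bp at its start, and its paralog *Msx2* had no peak.

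In total 22 of the 41 genes had no peak of either list in the gene or the 1000 bp before it, where the share of all protein-coding genes, whose median length is larger, was 36%. Measured from the gene start, their nearest WT peak was 4274 bp away at *Irx3* and 276882 bp away at *Pax1*. In cKO the distances ran from 2803 bp at *Msx2* to 365549 bp at *Irx3*, since the small WT peak next to *Irx3* had no cKO partner. Over all 41 genes the median distance to a peak was 17360 bp in WT and 8855 bp in cKO, against 3783.5 and 69 bp over all protein-coding genes. The 41 genes were also in sparser neighbourhoods, with a median of 1 other protein-coding start within 100 kb against 3, and were shorter, with a median length of 7252 bp against 17425 bp.

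Where a promoter was open in both lists, the cKO values were higher, as they were for most genes. Fold enrichment was higher in cKO at 10 of 10 developmental genes, where the share of all genes was 97.9%. The combined width of promoter peaks was larger at 10 of 10, against 95.8%. The median fold of the 10 genes went from 6.57 to 10.1, and that of all genes from 8.63 to 13.7. Ratios of cKO to WT fold ran from 1.06 at *Dlx1* to 1.95 at *Irx2*, with a median of 1.37 (1.13 to 1.73), against 1.57 (1.56 to 1.57) over all genes. After division by the latter, 3 of 10 ratios, those of *Irx2*, *Pax5* and *Nkx6-1*, were above 1, against 50% of all genes. The fold ratio compares 2 reference libraries of different depth and was not tested.

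**Figure D4:**
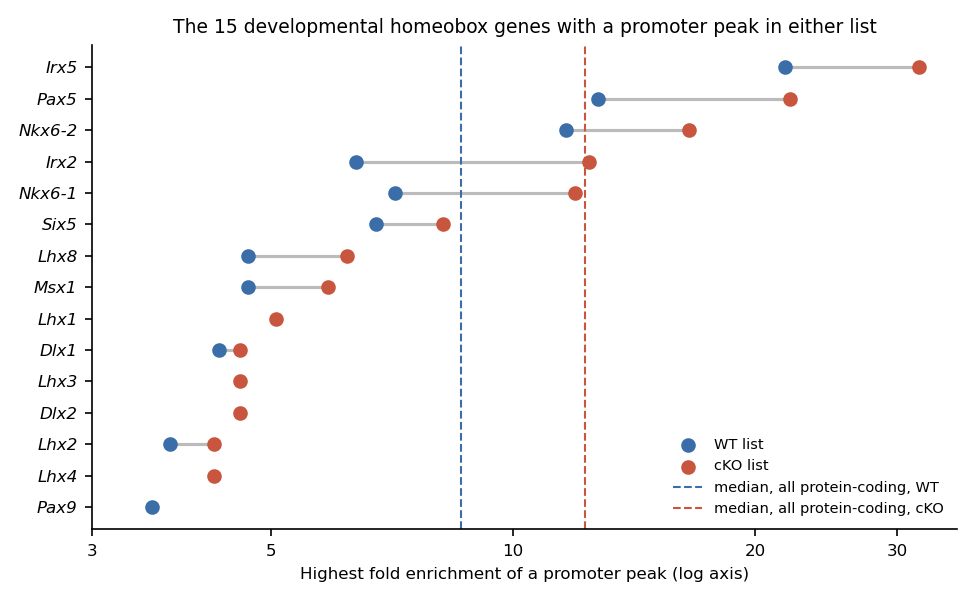
Highest fold enrichment of a promoter peak (x axis, log scale) at the 15 developmental homeobox genes with a promoter peak in the WT (blue) or cKO (red) list; dashed lines are the medians over all protein-coding genes with a promoter peak, 8.63 in WT and 12.3 in cKO. Only Irx5, Pax5 and Nkx6-2 lie above the median in WT, and these and Irx2 in cKO.

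Open developmental promoters differed widely in width. Of the 11 genes with a WT promoter peak, 4 had 2000 bp or more under promoter peaks (36.4%, 15.2 to 64.6), *Nkx6-2*, *Six5*, *Irx2* and *Irx5*, against 12.9% of all genes with a promoter peak. The same 4 genes passed 2000 bp in cKO, 4 of 14 (28.6%, 11.7 to 54.6), against 30.1%. The median width was 1184 bp in WT and 1059 bp in cKO, against 1100 and 1533 bp over all genes. Both medians depended on which weak or internal peaks were counted: they were 2255 and 1923 bp with a −log10 q limit of 10, and 2255 and 1923 bp when only the 5′ end of the gene record counted as a start. The cKO median of the developmental genes includes the 4 genes open in cKO only, whose median width was 540 bp and median fold 4.58, against 643 bp and 3.93 over the 1604 genes with a cKO-only promoter peak.

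**Figure D5:**
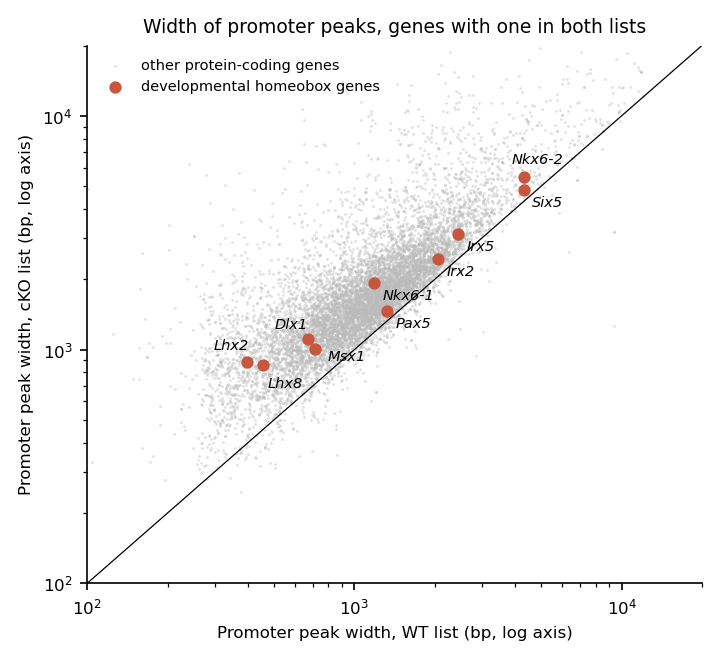
Width of promoter peaks in the cKO list (y axis, bp, log scale) against the WT list (x axis, bp, log scale) for genes with one in both lists; red points are the 10 developmental homeobox genes, grey points other protein-coding genes, and the line marks equal widths. All 10 lie above the line, from Lhx2, with 398 bp in WT and 881 bp in cKO, to Nkx6-2, with 4303 and 5493 bp.

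Considered by peak rather than by gene, the 41 genes held 17 WT and 26 cKO peaks. Of the latter, 10 were gained, in 9 genes (22.0%), close to the share of 23.6% over all protein-coding genes. The gained peaks had folds from 2.78 to 7.69. The 1 lost peak compares with 2.2% of all genes holding one. Most cKO peaks of these genes, 25 of 26, lay on 3 or more rows (96.2%), against 80.2% of the whole list, and in WT the count was 12 of 17 (70.6%), against 74.5%. The peaks had a median CpG ratio of 0.777 in WT and 0.731 in cKO, against 0.582 and 0.396 over the whole lists.

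Short promoter motifs were counted on both strands in the 300 bases around each gene start. The CCAAT box was found at 22 of the 41 genes (53.7%) and at 39.0% of all protein-coding genes, and the GC box GGGCGG at 24 (58.5%) and 43.0%. The TATA box TATAAA occurred at 3 (7.32%) and 12.6%, and the homeodomain core TAATTA at 1 (2.44%) and 5.30%. For CAGTTG, a site of MYB factors such as the meiotic regulator *Mybl1*, the counts were 1 gene (2.44%) and 12.7%. TGACG, the core of the cAMP response element, was found at 11 (26.8%) and 23.1%, and GCGCA, part of the NRF1 motif, at 19 (46.3%) and 36.1%. Among protein-coding genes with a promoter peak in either list, shares were 39.0% for CCAAT, 60.2% for GGGCGG, 6.97% for TATAAA and 2.48% for TAATTA. They were 10.8% for CAGTTG, 31.0% for TGACG and 50.3% for GCGCA. In the printed windows *Nkx6-2* held the CCAAT box, the GC box and the NRF1 letters. *Lhx1* held the CCAAT box and the cAMP element core. *Six2*, which had no peak, held the CCAAT box and the GC box. These letters are a description of the windows and not evidence of binding.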

How the data were processed

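ATAC-seq was performed by the authors with the Omni-ATAC protocol on 4 Arid1a WT and 4 Arid1a cKO libraries of pachytene spermatocytes. Per the methods of the study, the authors trimmed reads with Trim Galore, aligned them with bowtie2 to mm10, removed duplicates with Picard and mitochondrial reads, called peaks per library with MACS2 (q of 0.05, no local background) and intersected the replicates of a genotype with bedtools into 1 deposited list, from which blacklisted regions had been removed. No mapping quality filter was stated. Fold enrichment, as deposited, is the linear ratio (summit pileup + 1) to (library background + 1). The −log10 q values of the authors, and the deposited score derived from them, rate a summit against a Poisson background. A further deposited column, of another unit, holds the summit offset and was not used. Each list takes its peak names from 1 library, which the study did not identify, and a row is the overlap with another replicate. The depth of the other 3 libraries is unknown, and per-library data were not analysed here.

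Rows were collapsed by peak name with Python 3.11.15, pandas 2.3.3 and numpy 2.4.6, and figures drawn with matplotlib 3.10.9. Genes and starts were those of GENCODE vM21. A promoter peak shared at least 1 bp with a window that ran from 1000 bp before any start to 100 bp after it, and a peak of a gene with its body or the 1000 bp before it. A gained or lost peak shared no base with the other list. Pileup and background were recovered from the regular steps of the fold values. The steps were tested on simulated peaks with known status. CpG ratios and motifs were read from GRCm38.p6 for 41 of 41 genes and 21938 of 21938 protein-coding genes. RefSeq promoter entries were matched for 32 of the 41 genes and were used only for the printed sequences. *Irx5*, the strongest, is among the unmatched, the peak of *Pax5* is not at its printed window, and the *Pax9* peak lies partly in a UTR, so *Nkx6-2*, *Lhx1* and *Six2* were printed.

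The genes and the lists of markers and other homeobox genes were chosen with earlier results of these data known. All 41 genes were to be named, and described in full where they had the 10 highest promoter folds, a promoter state or peak that differed between the lists, or no peak. No test was run, since each genotype is 1 list. Shares over all protein-coding genes stand beside the main counts.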

Additional observations from a re-analysis of the deposited data

How the results depend on the processing

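Across 11 alternatives, 18 of 128 recomputed values moved and 110 did not, where a median was held to its own wide 95% interval. Some medians inside that interval still shifted: the promoter width went from 1184 to 2255 bp in WT and from 1059 to 1923 bp in cKO, both at a −log10 q limit of 10 and with the gene 5′ end as the only start, and the cKO fold went from 6.05 to 11.9 at that limit. With a −log10 q limit of 10 and "only", gained and lost judged against the full other list, 6 developmental genes had a promoter peak in WT and 9 in cKO (all genes, 41.1% and 49.6%), 1 had one in cKO only (*Lhx1*) and 0 in WT only. At that setting 6 of 6 promoters open in both lists were wider in cKO, the genes held 7 WT and 16 cKO peaks, 2 peaks were gained and 0 lost. Under the alternatives, shares of all genes were recomputed only for a promoter peak in WT or in cKO, so the other counts stand without a background. Counting only the 5′ end of the gene record as a start gave 6 genes in WT and 9 in cKO (all genes, 44.3% and 51.2%), 0 in WT only and 6 wider in cKO. The *Pax9* promoter peak, the only one in WT alone, was lost from the count (0 genes) at the −log10 q limit of 5, on 3 or more rows and when the peak centre had to lie in the window. The lost peak count was likewise 0 at a limit of 5 and on 3 or more rows. With lists of equal length, made by leaving out the weakest cKO peaks, 4 genes had a promoter peak in cKO only and 7 peaks were gained. Of all genes, 49.7% then had a promoter peak in WT and 52.4% in cKO. The cKO-only share of all genes was not recomputed there, so the 7.31% of the full lists is no background for these 4 genes. The cause of these shifts was not tested, beyond the fewer peaks or starts that each setting keeps. No paired analysis was possible because each genotype is 1 list without per-library values, and no replicate could be left out for the same reason.

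A fold enrichment near the lowest of a list, 2.63 in WT and 2.45 in cKO, rests on 13 or 14 fragments at the summit. The absence of a peak therefore says that none was called at this depth, not that the site was closed.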

Other observations

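Of the 68 other non-Hox homeobox genes listed for comparison, 19 had a promoter peak in both lists (27.9%, all protein-coding genes 49.4%), 12 in cKO only (17.6%, all genes 7.31%), 0 in WT only and 37 in neither (54.4%, all genes 43%). The highest fold enrichments in WT were those of *Hmx1* (19.5 in WT, 27.0 in cKO), *Barhl2* (12.4 and 16.0), *Alx1* (8.82 and 10.8) and *Vax2* (8.63 and 11.6), regulators of sensory organs, neurons or the face. Among the genes open in cKO only, *Nkx2-4* had a fold of 7.85 over 1787 bp and *En2* one of 7.20 over 2152 bp. Both also held 1 WT peak in the gene interval, outside the promoter windows. Only 1 of the 68 genes held a WT peak without a cKO partner. At least 1 of these WT peaks therefore overlapped a cKO peak, so a cKO-only promoter peak need not be a gained peak. The named examples were chosen after their values were seen. The difference between the sets of homeobox genes was not tested.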
